A study of Mus musculus with 11 samples.

Results

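The mouse miRNAs from miR-680 to miR-764-5p form a run of registry numbers rather than a family. The members were chosen by number alone, with miR-758 left out, from the spots of the deposited value table. The rule gave 48 miRNAs and 192 spots, 4 spots each, out of 334 mouse miRNAs and 1336 spots on the custom array. The array measured labelled total RNA from 11 mammary samples of female mice. Normal glands came from FVB mice (2 arrays), from the Balb/C strain, labelled Balbc (3 arrays), and from a mixed background labelled FVB129B6 (3 arrays). Glands were taken from females in late pregnancy, a stage at which the epithelium has expanded. The remaining 3 arrays held primary C3(1)/Tag tumors, labelled C3TAg, which grew in FVB females carrying the SV40 T/t-antigens under the rat C3(1) promoter. The transgene is thus driven in the ductal epithelium, with some activity elsewhere in the body. No ages or treatments are given in the labels.

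A miRNA acts as a guide. A hairpin transcript is cut to a short mature strand, which is loaded into an Argonaute protein and pairs with messenger RNAs mainly through its seed, the bases from position 2 to 8. Numbers were given in order of registration, so neighbouring numbers need not share sequence, function or genomic position. Several members have unusual origins: miR-702 is a mirtron, whose hairpin is a spliced intron, miR-712 has been traced to the precursor of ribosomal RNA, and miR-720 is now regarded as a fragment of a transfer RNA. miR-708 is transcribed with its host gene Tenm4.

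The probe of 37 of the 48 members could be matched to a mature miRNA in RefSeq (GRCm38.p6), 33 of them over the whole mature form and 4 with 1 base more or fewer at its 3′ end. miR-684, miR-685, miR-689, miR-694, miR-696, miR-699, miR-709, miR-712, miR-714, miR-715 and miR-720 are named only. The match settled the arm for 7 members whose array name gives none. The probes named miR-698, miR-700, miR-702, miR-708 and miR-760 read the 3p arm, and those named miR-701 and miR-744 read the 5p arm. The probe for miR-708 therefore does not read miR-708-5p. The 37 matched members had 37 different seeds, so none formed a seed family with another member. Outside the set, miR-721 had the seed of miR-130a, miR-130b and miR-301, and miR-761 had the seed of miR-214.

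The matched members that were detected on at least 1 tumor array are shown first. Of these, miR-690 and miR-762 were detected on all 3 tumor arrays, and miR-705, miR-711 and miR-744 on 1. miR-689, miR-709 and miR-720 were also detected on all 3 tumor arrays, but had no match and are not shown. Capitals mark the seed, and sequences run 5′ to 3′.
miR-690: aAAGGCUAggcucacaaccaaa
miR-762: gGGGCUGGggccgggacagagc
miR-705: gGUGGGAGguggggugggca
miR-711: gGGACCCGgggagagauguaag
miR-744-5p: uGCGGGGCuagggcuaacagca

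miR-690 lies at chr16:28599940-28599961 on the minus strand within the span of Fgf12. miR-762 lies at chr7:127708534-127708555 on the plus strand within Bcl7c. miR-705 lies at chr6:85336341-85336360 on the minus strand within Rab11fip5. miR-711 lies at chr9:108969970-108969991 on the plus strand within Col7a1, the gene of type VII collagen. miR-744-5p lies at chr11:65734799-65734820 on the minus strand within Map2k4, a kinase of the JNK pathway. Gene spans were compared without strand or exons.

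The matched members found on all gland arrays but on no tumor array follow, as the strain comparisons rest on several of them.
miR-700-3p: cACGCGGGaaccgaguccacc
miR-702-3p: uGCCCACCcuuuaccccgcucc
miR-703: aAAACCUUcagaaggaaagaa
miR-706: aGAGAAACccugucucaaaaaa
miR-708-3p: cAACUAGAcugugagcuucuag
miR-764-5p: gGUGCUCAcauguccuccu

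miR-703 lies at chr5:98475616-98475636 within Cfap299, miR-706 at chr6:120034290-120034311 within Wnk1, and miR-708-3p at chr7:96249496-96249517 within Tenm4. miR-764-5p lies at chrX:147002285-147002303 within Htr2c, a serotonin receptor gene. The last set holds members near the detection limit. Of these, miR-698 and miR-760 were tested only because of the FVB129B6 arrays, so their calls against Balb/C are a description only.
miR-698-3p: cAUUCUCGuuuccuucccu
miR-760-3p: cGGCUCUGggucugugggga
miR-704: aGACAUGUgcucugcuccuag
miR-683: cCUGCUGUaagcuguguccuc
miR-719: aUCUCGGCuacagaaaaauguu

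miR-698-3p lies at chr4:124743852-124743870 within Inpp5b, miR-704 at chr6:47803590-47803610 within Pdia4 and miR-719 at chr14:60228873-60228894 within Nupl1. miR-760-3p lies at chr3:122293615-122293634 and overlapped no named gene. miR-683 has 2 loci on chromosome 13.

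The arrays differed in brightness before any scaling. The median log2 green signal over the mouse spots was 8.99 to 9.39 on the 6 Balb/C and FVB129B6 arrays. It was 7.56 and 7.94 for FVB and lay from 6.97 to 7.41 for tumors. Tumors and glands were hybridised on different slides and read by different versions of the scanner program, so tissue, slide and program cannot be told apart. The FVB arrays occupied a column of the gland slide of their own, so FVB strain and slide column cannot be told apart either. Levels below are log2 signals minus the median of the array. On that scale the dimmest miRNA called well above background had a level between -4.42 and -2.80 on each gland array and between 1.23 and 2.13 on each tumor array. All 7 epithelial marker miRNAs were well above background on every gland array, and 1 to 4 of the 7 were on the tumor arrays. All p-values measure the spread between the samples deposited, of which 2 Balb/C arrays carry like titles and may be glands of 1 mouse.

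A miRNA was counted as detected on an array when the scanner program called at least 50% of its 4 spots well above background. In glands, 21 to 29 of the 48 members were detected on each array, which is 43.8% to 60.4%. Among the other 286 mouse miRNAs the share was 65.7% to 81.5%, above that of the members on each of the 8 gland arrays. On tumor arrays 5, 5 and 8 members were detected, or 10.4% to 16.7%, beside 3.50% to 19.6% of the other miRNAs. Of 16 spots with a random 22-base probe, 0 to 2 were called on any array. The 2 FVB arrays each had 21 detected members, the Balb/C arrays 21 to 24 and the FVB129B6 arrays 26 to 29.

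**Figure D1:**
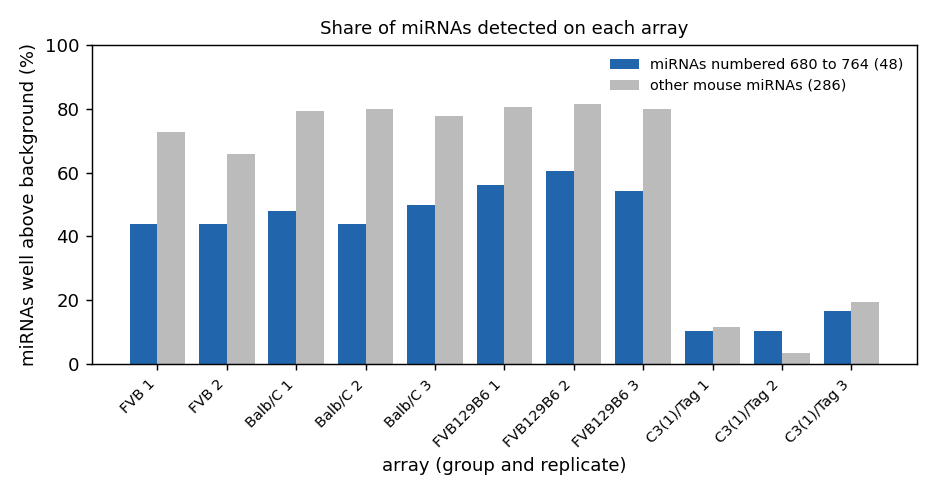
Percent of miRNAs detected on each of the 11 arrays (horizontal axis: group and replicate), for the 48 members (blue) and the 286 other mouse miRNAs (gray). The members lie between 43.8% and 60.4% on gland arrays, below the other miRNAs on each of them, and between 10.4% and 16.7% on tumor arrays.

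The 48 members divided by how many gland arrays detected them. A group of 20 members (41.7%) was detected on all 8 gland arrays, against 184 (64.3%) of the other miRNAs. Another 12 members were detected on some gland arrays, and 16 members (33.3%) on none, against 39 (13.6%) of the others. For 5 members, miR-688, miR-694, miR-697, miR-713 and miR-721, none of the spots was called on any of the 11 arrays. Among them was miR-721, whose seed is that of the miR-130 family. miR-761, with the seed of miR-214, had single called spots on 6 gland arrays and never reached 50%.

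**Figure D2:**
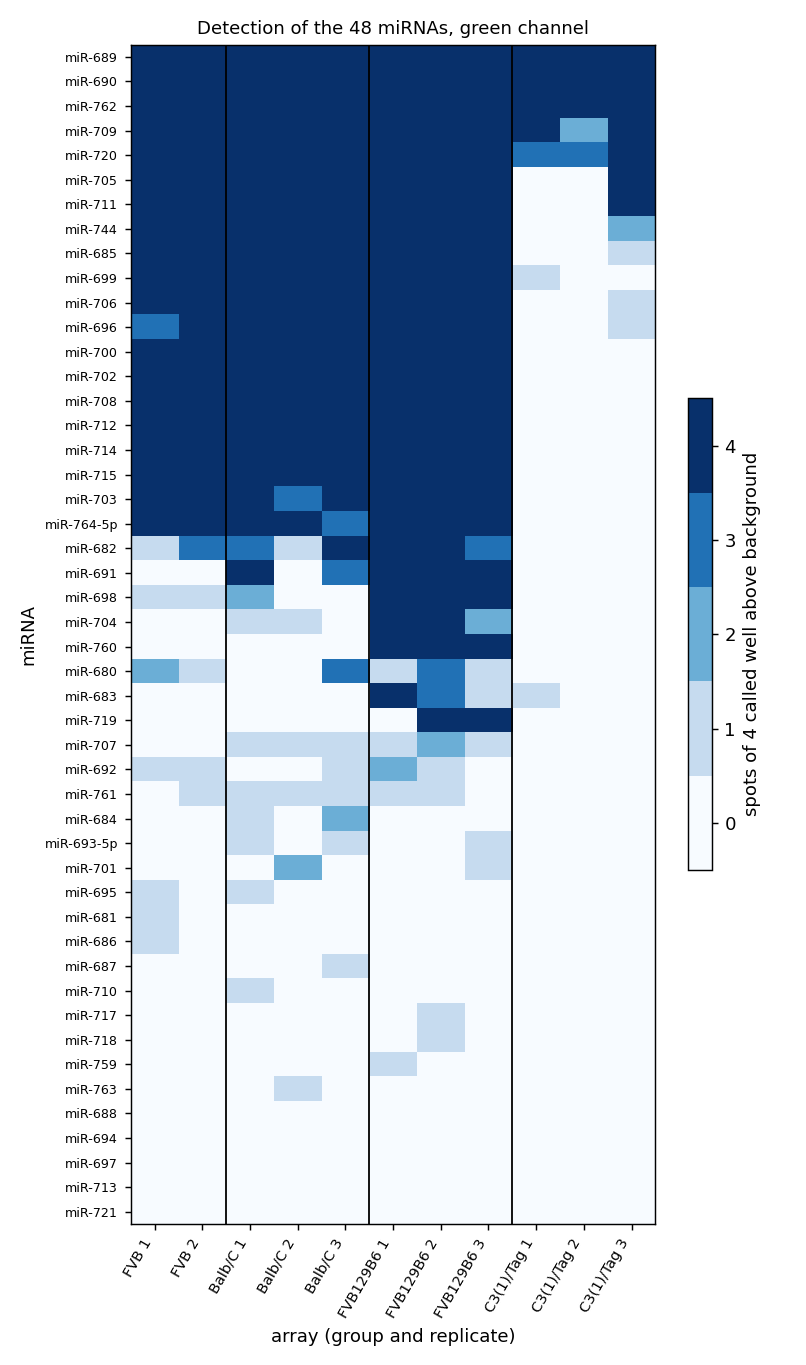
Number of spots (0 to 4, color) called well above background for each of the 48 miRNAs (rows) on each of the 11 arrays (columns, by group and replicate, green channel). The 20 uppermost rows were detected on all 8 gland arrays, and 5 of them on all 3 tumor arrays.

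All 8 members detected on a tumor array were also detected on all 8 gland arrays. miR-689, miR-690, miR-709, miR-720 and miR-762 were detected on all 3 tumor arrays, and miR-705, miR-711 and miR-744 on C3(1)/Tag replicate 3 alone. Among the tumor arrays that replicate also detected the most of the other miRNAs. The 5 members are 10.4% of the set, and 10 of the other miRNAs (3.50%) were detected on all 3 tumor arrays. The members detected in all glands but on no tumor array were miR-685, miR-696, miR-699, miR-700, miR-702, miR-703, miR-706, miR-708, miR-712, miR-714, miR-715 and miR-764-5p, 12 in all.

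The members differed from the rest of the array in base composition. Over the first 18 bases of each probe, which pair with the 3′ part of the miRNA, the members had a median of 55.6% G and C (range 33.3% to 88.9%), and the other miRNAs 44.4% (22.2% to 77.8%). The median was 66.7% for the 20 members detected on all glands, 52.8% for the 12 detected on some, and lower still for the 16 detected on none. Among the other miRNAs the median was 44.4% for those detected on all glands and for those detected on none. The 8 members detected in tumors had a median of 66.7% G and C and, in the miRNA, 44.4% G. The other 58 miRNAs detected in tumors had 44.4% G and C and 27.8% G. miR-705 held 66.7% G in these bases and miR-689 had 88.9% G and C, while miR-690 held 16.7% G. The part of base composition in the signals was not tested.

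Among the 20 members detected in all glands, miR-720 had levels of 9.05 and 9.41 on the FVB arrays, 8.50, 8.53 and 8.29 on the Balb/C arrays and 8.63, 8.45 and 8.56 on the FVB129B6 arrays. miR-690 had 8.48 and 9.62 in FVB, 7.71, 7.54 and 7.77 in Balb/C and 7.32, 7.61 and 7.56 in FVB129B6. miR-709 had 6.89 and 7.80 in FVB, 7.62, 7.58 and 7.65 in Balb/C and 7.21, 7.41 and 7.51 in FVB129B6. For miR-720 and miR-690 both FVB values lay above all Balb/C and FVB129B6 values, and for miR-709 the FVB values spanned those of both other strains, while the Balb/C values lay above the FVB129B6 values.

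These 20 members varied to different degrees between gland arrays. The level of miR-715 ran from 1.80 to 2.06 over the 8 arrays (median 1.91), that of miR-744 from 0.23 to 0.71 (median 0.46), and that of miR-699 from 1.20 to 1.70 (median 1.49). miR-712 ran from 2.14 to 2.67 with a median of 2.56. The widest range among the 20 was that of miR-703, from -3.24 to 0.84 (median -1.99), followed by miR-706, from 0.13 to 3.52 (median 1.34). Both were lowest on Balb/C replicate 2 and highest on FVB replicate 2. The remaining ranges were between 0.68 for miR-685 and 2.40 for miR-689.

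The question of the first comparison was whether the background strain changes these miRNAs in the normal gland. A miRNA was tested when it was detected on at least 3 arrays of the fit, which 26 of the 48 members and 261 of the 334 miRNAs were. The other 22 members had no test. In a moderated F-test over the 3 strains (limma, Benjamini-Hochberg adjusted over the 261 miRNAs), 17 of the 26 members passed 0.05, and 46.0% of all miRNAs tested were called. The 17 included miR-704 and miR-760, detected on the FVB129B6 arrays alone, and miR-698, which was tested only because of those arrays. The calls of these members are a description only. In the contrasts with FVB the members that were called were mostly higher in FVB than in the other strain. The FVB arrays were also the dimmest of the gland arrays, and this direction depended on the scaling.

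Against FVB glands, 13 of the 26 members were lower in Balb/C glands (limma), and none was higher, also at an unadjusted p under 0.05. In this direction 32.2% of all miRNAs tested were called, and the median difference was -0.85 over the members and -0.48 over all miRNAs tested. The 5 members with the largest differences were miR-703, miR-706, miR-689, miR-764-5p and miR-762. For each of the 5, both FVB values lay above all 3 Balb/C values. miR-689 had 1.96 and 2.54 on the FVB arrays and 0.46, 0.15 and 0.94 on the Balb/C arrays. Its difference was -1.74 (SE 0.27, adjusted p = 0.00543). miR-762 had 4.61 and 4.51 in FVB and 3.25, 2.77 and 3.18 in Balb/C, a difference of -1.49 (SE 0.19, adjusted p = 0.0024). miR-764-5p had -1.58 and -0.996 in FVB and -2.54, -2.90 and -3.16 in Balb/C, which are low levels. The difference was -1.58 (SE 0.26, adjusted p = 0.00543). For miR-703, with -0.84 and 0.84 in FVB and -2.08, -3.24 and -1.22 in Balb/C, the difference of -2.18 had an SE of 0.67 (adjusted p = 0.0379). miR-706 had 2.83 and 3.52 in FVB and 1.38, 0.13 and 2.12 in Balb/C, a difference of -1.97 (SE 0.55, adjusted p = 0.0257). These last 2 rest on few arrays. The call for miR-703 was lost without FVB replicate 2 (and without Balb/C replicate 1 or 2 or any FVB129B6 array), and that for miR-706 without FVB replicate 2. miR-760, among the 13, was not well above background in either strain. miR-680, also among them, was detected on only 1 of 3 Balb/C and 1 of 2 FVB arrays.

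Against the same FVB glands, 14 of the 26 members were lower in FVB129B6 glands, beside 31.4% of all miRNAs tested, and 1 member was higher, beside 8.05%. The higher member, miR-698, was tested only because of the FVB129B6 arrays, so its call is a description only. Among the 14, miR-680 was detected on only 1 of 3 FVB129B6 and 1 of 2 FVB arrays. The values for miR-689 in FVB129B6 were 0.48, 0.57 and 0.56, below both FVB values (difference -1.72, SE 0.27, adjusted p = 0.00363). miR-705 had -0.53 and 0.22 in FVB and -1.77, -1.74 and -1.71 in FVB129B6. This difference was -1.59 (SE 0.23, adjusted p = 0.00363), and the groups did not overlap. miR-690 differed by -1.55 (SE 0.31, adjusted p = 0.00666), miR-703 by -2.27 (SE 0.67, adjusted p = 0.0306) and miR-706 by -2.20 (SE 0.55, adjusted p = 0.0157). The 3p arm of miR-708 had 1.23 and 0.02 in FVB and -0.87, -1.16 and -0.72 in FVB129B6, a difference of -1.54 (SE 0.34, adjusted p = 0.0103). The calls for miR-703 and miR-706 were lost without FVB replicate 2 or FVB129B6 replicate 1, and that for miR-703 also without FVB129B6 replicate 2 or 3. The comparisons with FVB share the 2 FVB arrays, and leaving out FVB replicate 2 took the count for FVB129B6 from 15 called members to 9. Without FVB129B6 replicate 1 it was 8.

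How the arrays were scaled decided the direction for many of these members. With no scaling, 10 members were higher and none lower in Balb/C than in FVB, beside 151 higher and 0 lower of all 261 miRNAs. In FVB129B6 14 were higher and none lower, beside 176 and 3 of all. With the 75th percentile in place of the median, 2 were higher and 4 lower in Balb/C (31 and 16 of all), and 5 higher and 7 lower in FVB129B6 (40 and 43 of all). The median difference of all miRNAs tested moved by 1.35 with no scaling and 0.43 with the percentile for Balb/C, and by 1.41 and 0.36 for FVB129B6. Scaling to the median of the miRNAs detected on all arrays gave 4 higher and 5 lower in Balb/C (43 and 26 of all) and 6 and 4 in FVB129B6 (50 and 22 of all). Quantile normalization gave 1 and 5 in Balb/C (21 and 33 of all) and 5 and 10 in FVB129B6 (41 and 50 of all). Normexp background correction gave 5 and 13 in Balb/C (46 and 67 of all) and 5 and 15 in FVB129B6 (44 and 76 of all). Over 6 ways to scale or correct the background, miR-689, miR-690, miR-703, miR-706 and miR-762 stayed lower in both strains than in FVB. For miR-689 the differences ran from -1.74 to -0.39 in Balb/C and from -1.72 to -0.30 in FVB129B6, and for miR-762 from -1.49 to -0.14 and from -1.46 to -0.05. The calls for miR-689 and miR-762 held in 5 of the 6 and were lost with no scaling. In Balb/C the call held in 2 of the 6 for miR-690, whose difference reached -0.030 with no scaling, in 2 for miR-703 and in 1 for miR-706. In FVB129B6 it held in 5, 3 and 3. miR-714 and miR-720 changed sign in both comparisons with no scaling.

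**Figure D3:**
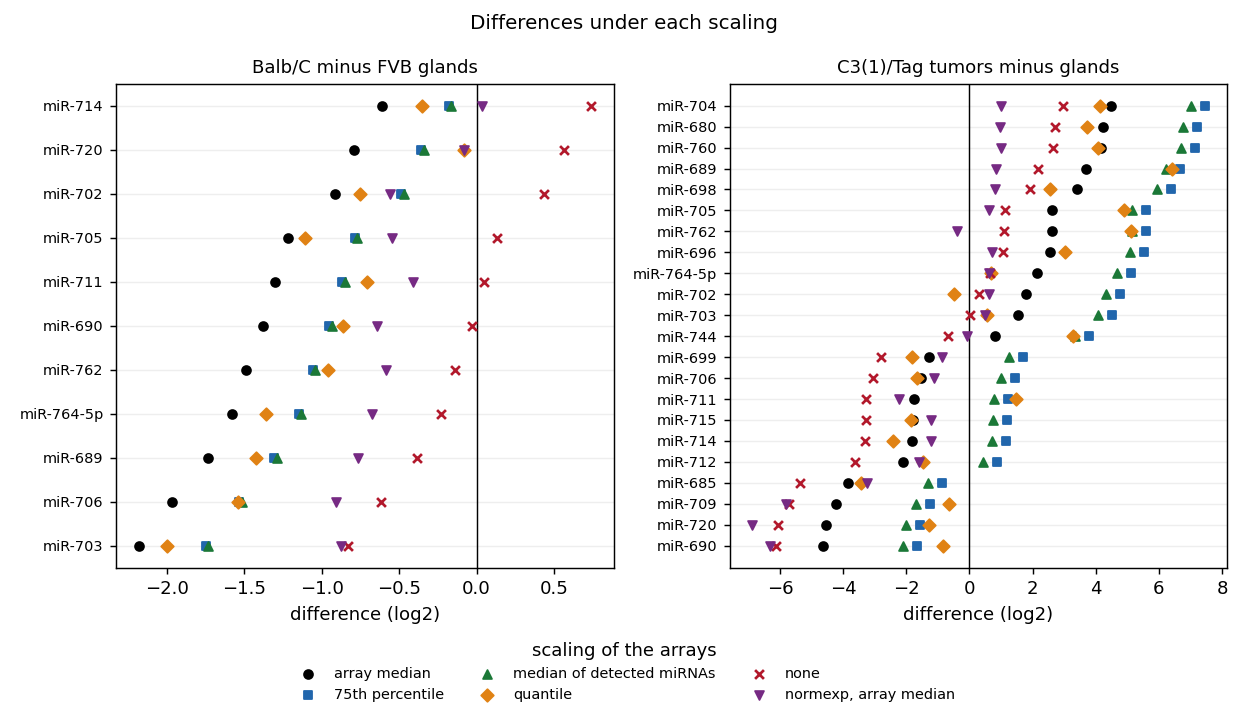
Difference on the log2 scale (horizontal axis) for named members called in Balb/C minus FVB glands (left) and in tumors minus glands (right), under 6 ways to scale the arrays or correct the background (symbols). In Balb/C, miR-703, miR-706, miR-689, miR-764-5p, miR-762 and miR-690 lie below 0 with every symbol. In tumors, miR-690, miR-720, miR-709 and miR-685 lie below 0 and miR-689 and miR-705 above 0 with every symbol.

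Marker miRNAs of other cell types were read beside these counts. The summed level of the 3 skeletal muscle miRNAs measured was 3.64 and 6.02 in FVB, 9.17 to 9.97 in Balb/C and 8.45 to 8.62 in FVB129B6. That of the 6 blood and lymphoid miRNAs measured was 9.66 to 9.72 in FVB, 7.93 to 9.56 in Balb/C and 7.25 to 7.76 in FVB129B6. All of these markers were detected on every gland array, and 0 to 2 of the 3 and 0 to 1 of the 6 on tumor arrays. Their part in the members' differences was not tested, and in bulk tissue fewer cells of a type and less RNA per cell cannot be told apart.

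Between Balb/C and FVB129B6 glands, whose arrays had like brightness, 2 of the 26 members were lower in Balb/C, beside 2.30% of all miRNAs tested. They were miR-698, read through its 3p arm, and miR-760. miR-698 had -0.96, -1.24 and -2.62 on the FVB129B6 arrays, with all 4 spots called on each. On the Balb/C arrays it had -4.13, -4.69 and -4.75 and was detected on the first alone, and on the FVB arrays it had -3.67 and -3.26 and was not detected. The groups did not overlap, and the difference between Balb/C and FVB129B6 was -2.92 (SE 0.43). Without the FVB129B6 arrays miR-698 would not have been tested, so its calls are a description only. Only 1 of the 3 Balb/C arrays measured it, so no fold is given, and the difference ran from -2.99 to -0.48 over 6 ways to scale the arrays or correct the background. Against FVB, where miR-698 was not well above background, FVB129B6 was at least 2.34-fold higher with array median scaling. miR-698 was the 1 member called higher in FVB129B6 than in FVB. With normexp background correction the sign turned (-0.15), and the call was lost without FVB129B6 replicate 1 or 2 or FVB replicate 1.

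miR-760 had -2.35, -2.91 and -3.24 in FVB129B6, with all 12 spots called. It had -4.51, -4.53 and -4.77 in Balb/C and -3.73 and -3.30 in FVB, and none of these 5 arrays detected it. Since no Balb/C array measured it, the signal in FVB129B6 was at least 2.85-fold higher with array median scaling. The difference of -1.77 ran from -1.84 to -0.23 over the 6 ways to scale or correct. miR-760 entered the test through the 3 arrays of that strain alone, so it had to differ, and its place among the 2 called members is a description only. The members miR-698 and miR-760 were lower in Balb/C under all 6 ways to scale or correct the background, and the calls were lost under normexp. They were also lost without Balb/C replicate 2, without FVB replicate 2, and, for miR-698, without FVB129B6 replicate 1 or 2. miR-760 was not tested without any 1 of the FVB129B6 arrays.

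A few more members near the detection limit had their signal on FVB129B6 arrays. They are named here after their values were seen. miR-704 had -2.66, -2.99 and -4.16 in FVB129B6 and -4.40, -4.76 and -4.97 in Balb/C, and it too entered the test through the FVB129B6 arrays alone, so its difference of -1.44 is given without a test. miR-683 had -3.33, -3.59 and -4.28 in FVB129B6 and was detected on the first and second arrays, too few for the test. miR-719 had -0.04 and -1.16 on FVB129B6 replicates 2 and 3, with all 4 spots called on each, but -4.77 and no called spot on replicate 1. The FVB129B6 arrays thus differed among themselves for miR-719, which was detected on no other array.

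**Figure D4:**
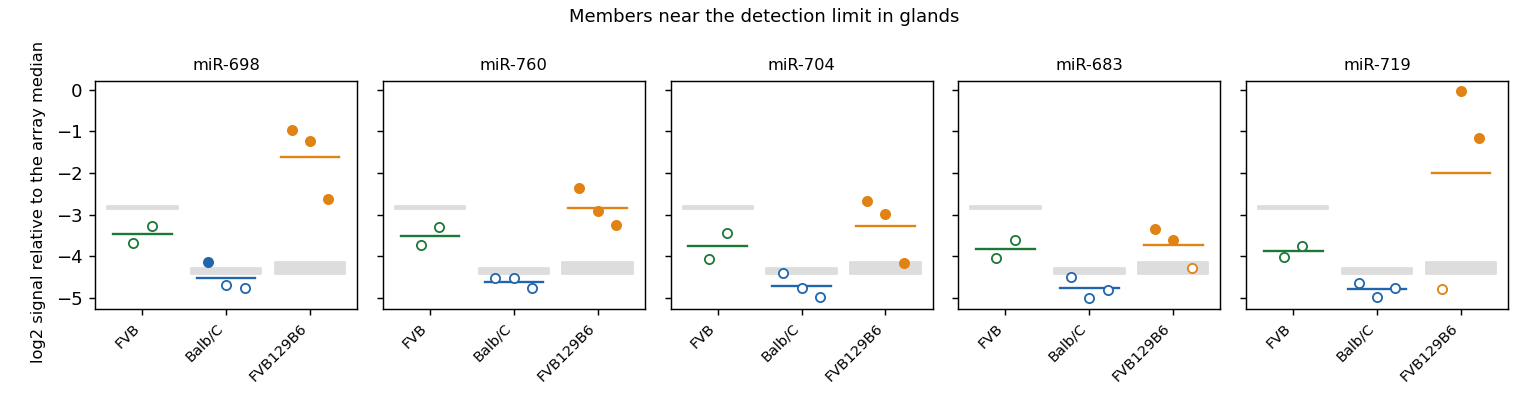
Levels (log2 signal relative to the array median) of 5 members on the gland arrays, by strain. Filled points were well above background, open points were not, lines are group means, and gray bands span the lowest detected level of the arrays in a group. For miR-698 and miR-760 the 3 FVB129B6 points lie above the band and above the Balb/C points.

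The last comparison set C3(1)/Tag tumors against the normal glands, with the mean of the 3 strain means as the control. Of the 26 members tested, 14 were higher in tumors, beside 37.9% of all miRNAs tested, and 10 were lower, beside 52.5%. The median difference was 1.17 over the members and -0.83 over all miRNAs tested. The median of a tumor array lay among undetected miRNAs, since at most 64 of 334 were detected there, and 10 of the 14 members called higher were not detected on any tumor array. They were miR-680, miR-682, miR-691, miR-696, miR-698, miR-702, miR-703, miR-704, miR-760 and miR-764-5p, and no fold is given for them. With 75th percentile scaling 22 members were higher and 4 lower, beside 172 and 70 of all 261 miRNAs. With no scaling it was 11 and 13, beside 59 and 173, and with the median of the miRNAs detected on all arrays 21 and 4, beside 161 and 76. These 3 moved the median difference of all miRNAs tested by 2.98, -1.50 and 2.53.

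The 5 members detected on all 11 arrays gave measured differences. miR-690 had 3.84, 2.75 and 3.77 on the tumor arrays, below all gland values given above. The signal was 24.6-fold lower in tumors (difference -4.62, SE 0.29, adjusted p = 5.69e-08). miR-720 had 3.85, 3.90 and 4.81 in tumors, a difference of -4.55 (SE 0.22, adjusted p = 7.21e-09). miR-709 had 3.04, 2.13 and 4.51, a difference of -4.22 (SE 0.41, adjusted p = 2.24e-06). All 3 lay below 0 under the 6 ways to scale or correct, at -6.31 to -0.83 for miR-690, -6.87 to -1.29 for miR-720 and -5.81 to -0.64 for miR-709.

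miR-689 and miR-762 ran the other way. miR-689 had 4.81, 3.95 and 5.57 on the tumor arrays, above every gland array, a 12.8-fold higher signal (difference 3.68, SE 0.31, adjusted p = 7.45e-07). miR-762 had 6.21, 5.15 and 7.19 in tumors, above every gland array, with a difference of 2.61 (SE 0.34, adjusted p = 2.75e-05). The difference for miR-689 stayed above 0 under the 6 ways to scale or correct (0.84 to 6.65), and that for miR-762 did in 5 and was -0.38 under normexp. A shift of a whole array cancels when 2 members are set against each other. The change of miR-762 from glands to tumors exceeded that of miR-690 by 7.23 on the log2 scale, and that of miR-689 exceeded it by 8.30. The changes of miR-690, miR-709 and miR-720 lay within 0.40 of each other. Normexp and quantile normalization do more than shift an array. They gave 5.92 and 5.95 for miR-762 against miR-690, and 7.15 and 7.26 for miR-689 against miR-690. They also moved miR-709 1.06 and 0.65 above miR-720.

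**Figure D5:**
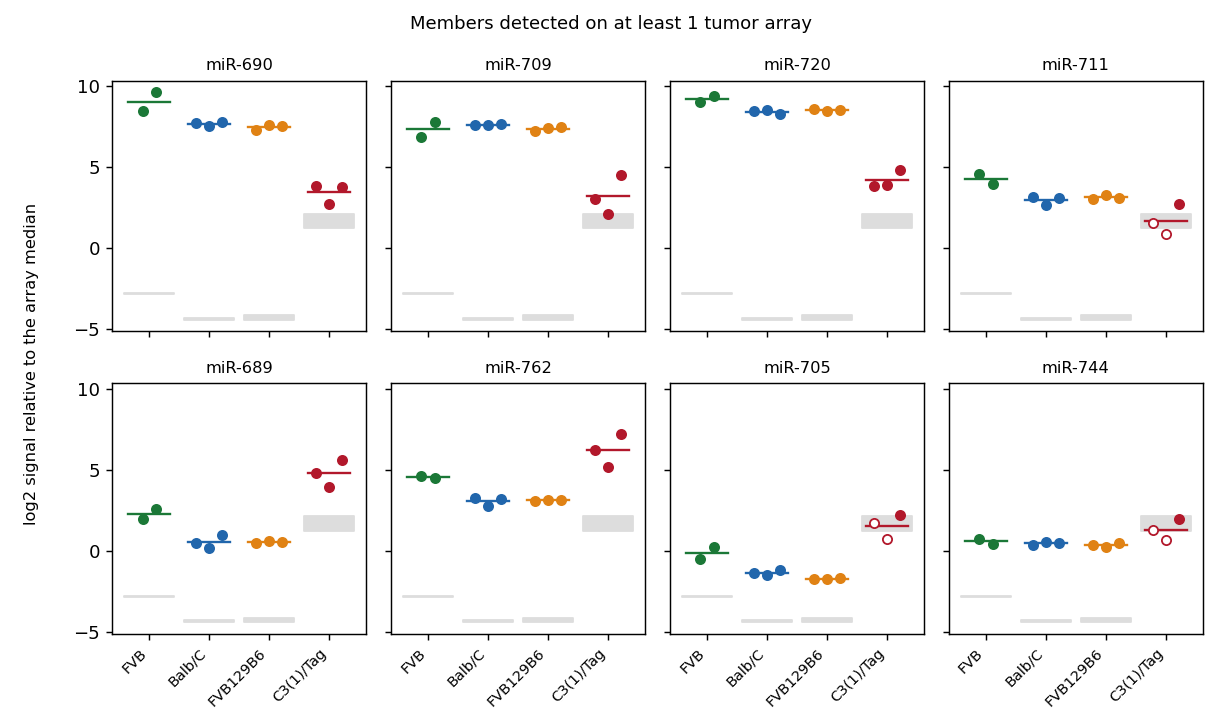
Levels (log2 signal relative to the array median) of the 8 members detected on at least 1 tumor array, by group. Filled points were well above background, open points were not, lines are group means, and gray bands span the lowest detected level of the arrays in a group. In tumors miR-690, miR-709 and miR-720 lie below all gland points, and miR-689 and miR-762 above them.

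The 3 members detected on C3(1)/Tag replicate 3 alone gave less certain values. miR-705 had 1.71, 0.69 and 2.19 in tumors, detected on the last, and -1.77 to 0.22 in glands, a difference of 2.62 (SE 0.29, adjusted p = 6.58e-06). It lay above 0 under the 6 ways to scale or correct (lowest 0.63). miR-744, with 1.26, 0.67 and 1.93 in tumors, overlapped the glands, and its difference of 0.82 (SE 0.24, adjusted p = 0.00677) changed sign with no scaling (-0.68). miR-711 had 1.54, 0.86 and 2.72 and also overlapped, with a difference of -1.76 (SE 0.34, adjusted p = 0.000471) that changed sign with 75th percentile scaling (1.21).

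For members detected in glands and not in tumors, the tumor arrays give only a bound. miR-685 had 4.30 and 4.57 in FVB, 3.99, 3.89 and 4.06 in Balb/C and 3.97, 4.10 and 4.08 in FVB129B6. Its tumor values of -0.19, 0.00 and 1.09 were not well above background. With array median scaling it was at least 5.13-fold higher in glands than in tumors (adjusted p = 7.74e-08). Its difference lay below 0 under the 6 ways to scale or correct, at -5.36 to -0.88. Bounds were not computed under the other ways, so they hold for array median scaling only. On the same scale the bound was at least 1.55-fold for miR-712 (adjusted p = 4.61e-07). It was at least 1.11-fold for miR-714 (adjusted p = 4.6e-07) and at least 1.09-fold for miR-715 (adjusted p = 4.67e-07). These last 3 changed sign with 75th percentile scaling. The p-values beside the bounds are those of the difference in level, with undetected tumor values taken as read. They do not test the bounds. For miR-699 and miR-706 the mean gland level lay under the mean of the lowest detected levels of the tumor arrays, so no fold is given, although single gland arrays lay above some of these. miR-700 and miR-708 were the 2 members tested that were not called. Neither was detected on a tumor array, and their mean gland levels lay under the lowest detected levels there, so no difference is given. The calls for all 24 members held when any array was left out, wherever the member was still tested.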

How the data were processed

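RNA of each sample was labelled with Hy3 and hybridised to a custom Agilent array designed from the Sanger miRNA database. The authors extracted spot intensity values with the Feature Extraction program (version 9.5.1.1 for tumors, 10.5.1.1 for glands, per the file headers), already corrected for background. They also deposited a log2 table of the plus-strand mouse spots after global median normalization, which served as an alternative. Members and lists were chosen with earlier results of these data known.

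From the deposited green processed intensity, log2 values were taken, the array median over 1336 mouse spots was subtracted, 22 of 2112 member spots marked as outliers were left out, and the remaining replicate spots were averaged by miRNA. No member spot was saturated. A miRNA was tested when at least 50% of its spots were well above background on at least 3 arrays of the fit. Models were fitted with limma 3.58.1 in R 4.3.3, over 8 gland arrays for strains and over 11 arrays for tumors, with Benjamini-Hochberg adjustment at 0.05 over all 261 miRNAs tested. The fits were tested on simulated data in which every spot was well above background and changes ran both ways, so detection limits were not part of that test. Where no array of a group measured a member, a fold is a bound: the mean of the other group against the mean, per array, of the lowest detected level or the member's own if higher. Named members were those detected on any tumor array or on all 8 gland arrays, and the 5 called members with the largest difference in each direction without overlap. The number of arrays limits the precision. Alternatives covered scaling, background, filters, a floor, outlier spots, the deposited table, replicates and control arrays. The red channel entered no comparison. Same-numbered gland arrays of different strains were compared through their deviations from the strain means.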

Additional observations from a re-analysis of the deposited data

Results flagged for a closer look

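The red channel of the scanner files entered no comparison, and the labels used here name only the Hy3 sample of the green channel. By the same rule, 24 members were well above background in red on all 8 gland arrays and 3 on all 3 tumor arrays, where 0 to 2 of 16 spots with a random probe were called. On each gland array 24 to 30 of the 48 members were called in red, beside 261 to 268 of the 286 other miRNAs. On tumor arrays it was 3 to 5 members, beside 44 to 56 of the others. The red calls were flagged because the signal lies in data outside the measurement, and they are not particular to the members. The 3 in tumors were miR-705, miR-720 and miR-762, and miR-689 was not called in red on any tumor array. In glands, 20 of the 24 were those detected in green on all 8 arrays, and the other 4 were miR-680, miR-701, miR-760 and miR-761, detected in green on 3, 1, 3 and 0 gland arrays. No group of arrays held more than 3, so the search for single outlying samples could not be run.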

How the results depend on the processing

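Of 49 differences of the 24 named members, recomputed under every alternative, 893 of 1034 values kept direction and call, 107 lost the call and 34 turned sign, 32 of these under another scaling or background. The cause was not tested. Direction and call were kept by 30 of the 49 under the percentile, 28 under the median of detected miRNAs and 36 under quantiles. With no scaling it was 22, and with normexp 35. Of all called members, 0 strain calls and 12 of the 24 tumor calls held under all 6 ways to scale or correct. The 17 members called between strains became 9 with 75th percentile scaling, 11 with the median of detected miRNAs, 11 with quantile normalization and 37 with no filter, which tests more miRNAs. For Balb/C against FVB, 13 became 6 with the percentile, 6 with quantiles and 35 unfiltered, and for FVB129B6 against FVB 15 became 36 unfiltered. For Balb/C against FVB129B6, 2 became 0 with normexp (limma, 3 at an unadjusted p under 0.05), and 0 when detection on every array was required (2 unadjusted), which drops both members. For tumors, 24 of 26 tested became 46 of 48 unfiltered and 5 of 5 with that filter. No shares over all miRNAs are given for the fits with another filter.

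Leaving out 1 array gave 10 to 15 called members for Balb/C against FVB, 8 to 17 for FVB129B6 against FVB, 0 to 2 for Balb/C against FVB129B6, 9 to 17 between strains and 21 to 24 for tumors. Between strains it was 10 without FVB129B6 replicate 1, 9 without its replicate 2 and 11 without FVB replicate 2. The fits with 1 array left out tested 23 to 26 members, and no shares over all miRNAs are given for them. Correlations of deviations between same-numbered gland arrays of different strains ran from -0.28 to 0.42 over 261 miRNAs (numbers taken from the labels). Arrays with different numbers were not compared in this way, so these values cannot decide whether the arrays pair. With the replicate number as a block, the counts of called members were 13, 13, 2, 12 and 24 in the same order, also without shares. Averaging the like-titled Balb/C arrays kept all 49 calls.

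These differences turned sign. With no scaling in Balb/C against FVB, miR-702 was 0.43, miR-705 0.13, miR-711 0.0505, miR-714 0.74 (0.0321 with normexp) and miR-720 0.56. In FVB129B6 against FVB, miR-700 was 0.44, miR-702 0.45, miR-711 0.28, miR-714 0.77 (0.0356 with normexp), miR-720 0.73 (0.29 with quantiles) and miR-764-5p 0.54, and miR-698 was -0.15 with normexp. In tumors the percentile and the detected median gave 1.69 and 1.25 for miR-699, 1.44 and 1.00 for miR-706, 1.21 and 0.77 for miR-711, 0.86 and 0.42 for miR-712, 1.16 and 0.72 for miR-714, and 1.20 and 0.75 for miR-715. A floor at the lowest detected level gave 0.31 for miR-699 and 0.0082 for miR-706. Quantiles gave 1.48 for miR-711 and -0.47 for miR-702. miR-744 was -0.68 with no scaling and -0.0803 with normexp, and miR-762 was -0.38 with normexp. Signal over background limits the tumor arrays most, where 15 to 64 of 334 miRNAs were detected.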
